A study of Homo sapiens with 47 samples.

Results

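Transforming growth factor beta (TGF-beta) signalling was examined through 9 genes, namely the ligands TGFB1 and TGFB2, the receptors TGFBR1 and TGFBR2, the receptor-activated SMADs SMAD2 and SMAD3, the inhibitors SMAD7 and SKIL, and the target gene TGFBI. They were chosen by name for their place in the pathway, without a rule on measured values but with earlier results of these data known. All 9 were found among the 25739 genes of the expression table. The table holds 37 circulating tumor cells (CTC) of 5 mice and 6 cells of the same line from culture. The line, MDA-MB-231-LM2 (LM2), is an established human triple-negative breast cancer line that spreads spontaneously from the mammary fat pad. GFP-labelled LM2 cells were grown as mammary fat pad tumors in NOD/SCID gamma (NSG) mice, which lack T, B and natural killer cells, and CTCs were enriched from terminal blood by size in a microfluidic device and picked one at a time by GFP. The CTCs numbered 2 in mouse 5541, 4 in mouse 5542, 10 in mouse 5545, 17 in mouse 5546 and 4 in mouse 5549. The labels name no treatment, so the comparison is between cells taken from blood and cells taken from a dish. The library titles name no batch, and the paper states that the cultured cells were processed alongside the CTCs.

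TGF-beta ligands are secreted in a latent form and, when freed, bind the type II receptor TGFBR2, which recruits and phosphorylates the type I receptor TGFBR1. TGFBR1 then phosphorylates SMAD2 and SMAD3, which enter the nucleus with SMAD4 and change transcription. Among the genes they induce are the inhibitors SMAD7 and SKIL, which close a negative feedback loop, and in breast cancer the pathway is known both for growth arrest and for epithelial-mesenchymal transition, invasion and metastasis.

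Each value is a normalized count, that is, the reads of a gene scaled by a size factor estimated for each cell. Reads on genes ranged from 469614 to 2041333 per CTC and from 776949 to 1186197 per cultured cell. Of the 6 LM2 markers, VIM, CD44, CAV1 and ITGB1 were detected in all 37 CTCs, CAVIN1 in 36 and EGFR in 33. Erythroid marker genes had reads in 36 CTCs and leukocyte marker genes in 24, while no cultured cell had an erythroid read. CTC 5545-6 had the fewest genes detected (2227). Mouse 5546 has 9 libraries named with a c and 8 named with an s, letters that the labels leave unexplained, and the s libraries had fewer genes detected (4225 to 6942, against 7438 to 11010). The mouse was taken as the replicate of the CTCs, and the 6 cultured cells count as 1 culture without a replicate.

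Promoters of the feedback inhibitors and of the target gene are shown because SMAD proteins act on transcription through short DNA elements there. The windows are the 250 bases before the transcription start in RefSeq (GRCh38.p14), given in the direction of the gene, with every CAGAC or its reverse complement GTCTG, a core letter string of SMAD-binding elements, in capitals. The window of SMAD7 is chr18:48950966-48951215 on the minus strand, that of SKIL is chr3:170357465-170357714 on the plus strand, and that of TGFBI is chr5:136028738-136028987 on the plus strand.
SMAD7 promoter: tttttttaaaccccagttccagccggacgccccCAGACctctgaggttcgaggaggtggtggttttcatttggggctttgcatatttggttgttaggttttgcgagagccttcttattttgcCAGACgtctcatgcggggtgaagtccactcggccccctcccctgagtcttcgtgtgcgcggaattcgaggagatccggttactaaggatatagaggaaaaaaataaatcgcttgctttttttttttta
SKIL promoter: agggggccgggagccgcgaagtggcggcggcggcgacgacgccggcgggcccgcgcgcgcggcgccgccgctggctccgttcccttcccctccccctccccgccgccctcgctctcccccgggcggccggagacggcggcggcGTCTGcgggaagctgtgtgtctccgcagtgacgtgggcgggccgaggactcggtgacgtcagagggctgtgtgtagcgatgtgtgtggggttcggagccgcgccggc
TGFBI promoter: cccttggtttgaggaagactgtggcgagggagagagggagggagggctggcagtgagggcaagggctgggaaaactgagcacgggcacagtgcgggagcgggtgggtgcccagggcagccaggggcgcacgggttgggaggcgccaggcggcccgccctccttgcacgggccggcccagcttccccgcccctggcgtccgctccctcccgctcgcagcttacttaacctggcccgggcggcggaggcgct
The SMAD7 window holds 2 copies, the SKIL window holds 1 and the TGFBI window holds none. Of 34943 RefSeq promoter windows of this length, 38.01% hold at least 1 copy. Among the other members, the windows of TGFB2 (2 copies) and TGFBR1 (1 copy) also hold them, and those of TGFB1, TGFBR2, SMAD2 and SMAD3 do not.

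The ligand genes were the least detected members besides SMAD7. TGFB1 (ENSG00000105329, chromosome 19 from 41301587 to 41353922 on GRCh38), which encodes the best known ligand, had reads in 9 of 37 CTCs, or 24.3% (exact 95% binomial interval 11.8% to 41.2%), and in 2 of 6 cultured cells. Its mean was 3.42 in mouse 5541, 18.4 in mouse 5542, 0 in mouse 5545, 0.272 in mouse 5546 and 0.167 in mouse 5549, against 1.26 in culture. The high value of mouse 5542 came from CTC 5542-4, which alone had 73.8 normalized counts (108 reads) and 85.9% of the TGFB1 signal of all CTCs, and the other 3 CTCs of that mouse had none. The exons of TGFB1 share 215 bases with those of HNRNPUL1 on the opposite strand, which had 56.0 normalized counts in that CTC, and reads in the shared part cannot be told apart because strand was not used. Platelets store TGF-beta, and the platelet markers summed to 4.78 normalized counts in CTC 5542-4, which had the highest PF4 of all CTCs (4.10). The maximum of this sum was 77.3 in CTC 5542-8, where GP9 alone had 76.7 and TGFB1 had no read. A platelet source of TGFB1 was not tested. In the 10 CTCs of mouse 5545 a count of 0 allows a mean of up to 0.270.

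TGFB2 (ENSG00000092969, chromosome 1 from 218345336 to 218444619), the other ligand, had reads in 17 CTCs, or 45.9% (29.5% to 63.1%), and in 5 cultured cells. Mouse means were 0 in mouse 5541, 4.78 in mouse 5542, 4.04 in mouse 5545, 8.40 in mouse 5546 and 0 in mouse 5549, and every one lay below the culture mean of 22.2. The zeros allow means of up to 0.875 in mouse 5541 and 0.630 in mouse 5549. The cultured cells ran from 0 to 47.7 with a median of 19.4, so single CTCs overlapped them, and CTC 5546-s8 at 62.1 exceeded all of them. No CTC besides 5546-s8 and 5545-4 (25.5) exceeded the culture mean. Part of the exons of TGFB2 (701 bases) is shared with the antisense gene TGFB2-AS1, which had almost no signal (mean 0.0263 in CTCs and 0 in culture).

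The receptor genes stood in opposite order in CTCs and in culture. TGFBR2 (ENSG00000163513, chromosome 3 from 30606601 to 30694142), the ligand-binding receptor, was detected in 31 CTCs, or 83.8% (68.0% to 93.8%), and in 5 cultured cells. Its mean was 37.2 in mouse 5541, 40.4 in mouse 5542, 36.8 in mouse 5545, 152 in mouse 5546 and 112 in mouse 5549. All 5 lay above the culture mean of 32.9, although by little in mice 5541, 5542 and 5545. These 3 rested on single cells, and their means fell below the culture to 30.9 without CTC 5541-5, 20.8 without 5542-1 and 21.2 without 5545-12. As the mean of log2(value + 1) over cells, mice 5542 (3.42) and 5545 (3.95) lay below the culture (4.26) and the other 3 above it. Cultured cells ranged from 0 to 65.3, and 14 of the 37 CTCs exceeded the highest of them. The highest CTC, 5546-s2, had 984 normalized counts, and without it the mean of mouse 5546 was 99.6.

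TGFBR1 (ENSG00000106799, chromosome 9 from 99104038 to 99154192), the kinase that signals to the SMADs, was detected in 25 CTCs, or 67.6% (50.2% to 82.0%), and in all 6 cultured cells. Its mean was 3.38 in mouse 5541, 3.71 in mouse 5542, 17.6 in mouse 5545, 36.2 in mouse 5546 and 2.86 in mouse 5549, and all 5 were below the culture mean of 90.7. The cultured cells varied widely, from 2.51 in LM-2 and 5.17 in LM-10 to 258 in LM-P3, and 3 CTCs exceeded their mean (97.4 in 5545-1, 142 in 5546-c5 and 153 in 5546-c8). In mouse 5546, TGFBR1 was detected in 9 of 9 libraries with the letter c (median 58.9) and in 5 of 8 with s (median 0.956).

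Comparing both receptors within a cell removes the scale of the cell. TGFBR2 exceeded TGFBR1 in 27 CTCs and TGFBR1 exceeded TGFBR2 in 7, with neither gene detected in the other 3, and the counts were the same per length of merged exons. In culture TGFBR1 was higher in 5 cells and TGFBR2 in 1, or 4 and 2 per length, since LM-1 had nearly equal levels. The CTCs with more TGFBR2 were 2 of 2 in mouse 5541, 3 of 4 in mouse 5542, 6 of 10 in mouse 5545, 13 of 17 in mouse 5546 and 3 of 4 in mouse 5549, so that they were the majority in every mouse. From the mean levels, the ratio of TGFBR2 to TGFBR1 was 11.0, 10.9, 2.09, 4.18 and 39.4 in mice 5541, 5542, 5545, 5546 and 5549, against 0.363 in culture. On the log2 scale the mice averaged 3.07 ± 1.60 (SD, n = 5) and the culture was at -1.46, a difference of 4.53. It stayed between 3.97 and 5.03 when any mouse or any cultured cell was left out. With 1 CTC left out, the lowest ratio in a mouse was 1.09 (mouse 5545 without 5545-12), and in mouse 5541 no ratio could be formed without 5541-1, since TGFBR1 had no read in the other CTC. This ratio was chosen after the values were seen, and with 5 mice and 1 culture an exact one-sided permutation test cannot go below p = 0.167, so it is given as a description.

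**Figure D1:**
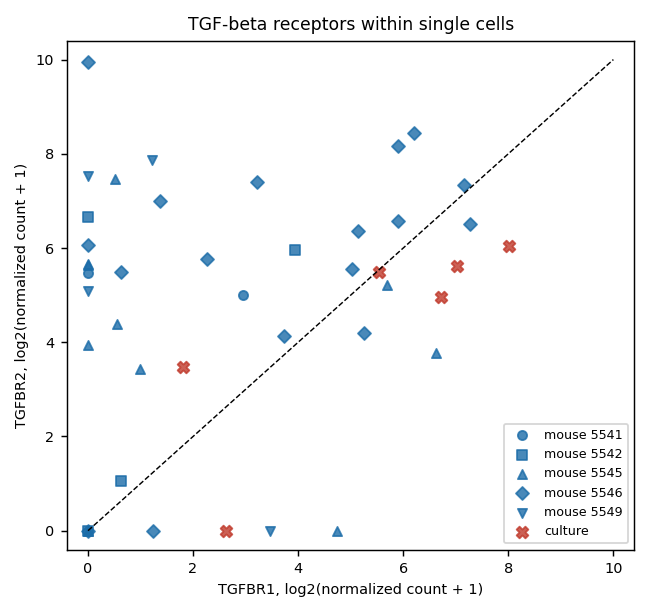
TGFBR1 (x axis) against TGFBR2 (y axis) in each cell, as log2(normalized count + 1), with blue symbols for the CTCs of each mouse, red crosses for the 6 cultured cells and a dashed line where both genes have the same value. Of the 37 CTCs, 27 lie above the line and 7 below it, while 5 of the 6 cultured cells lie below it.

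TGFBR2 varied with leukocyte marker genes. Over the 37 CTCs, Spearman's rho of TGFBR2 was 0.476 with the summed leukocyte list and 0.435 with the neutrophil list. In the 24 CTCs with a leukocyte read TGFBR2 had a mean of 126 and TGFBR1 of 23.8, and TGFBR2 was the higher of the pair in 20. In the 13 CTCs without one, which came from all 5 mice, the means were 45.8 and 19.5. Among these 13, TGFBR2 was higher in 7 and TGFBR1 in 3. All CTCs of mouse 5546 except 5546-c7 and 5546-s5 had a leukocyte read. That mouse had the highest mean of TGFBR2 (152), so the correlations and this split cannot be told apart from a difference between mice. By PTPRC alone, the gene for the leukocyte antigen CD45, TGFBR2 had a mean of 100.3 in the 26 CTCs without a read and 93.1 in the 11 with one. The leukocyte list summed to between 0 and 419 normalized counts in CTCs and to at most 7.96 in culture, and 7 of its 9 genes had values. The blood cells of the host are those of a mouse, and the reads were aligned to the human genome. CTC 5546-s2, with the most TGFBR2 (984), had a leukocyte sum of 2.07, all of it from CD14. It is thus among the 24 CTCs with a leukocyte read and the 26 without a PTPRC read, and it raises both means (126 and 100.3). The higher mean of the CTCs without a PTPRC read rests on this CTC. Captured cells were stained for CD45 to select against leukocytes before cells with GFP were picked. The part of leukocyte RNA in the receptor levels was not tested.

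SMAD2 and SMAD3, which carry the signal from the receptors to the nucleus, were both detected in most CTCs. SMAD2 (ENSG00000175387, chromosome 18 from 47808957 to 47931146) was present in 25 CTCs, or 67.6% (50.2% to 82.0%), and SMAD3 (ENSG00000166949, chromosome 15 from 67063763 to 67195173) in 30, or 81.1% (64.8% to 92.0%). Mean SMAD2 was 22.6, 21.0, 20.6, 8.24 and 7.18 in mice 5541, 5542, 5545, 5546 and 5549, against 44.2 in culture. Mean SMAD3 was 4.73, 7.36, 19.2, 46.9 and 6.67 in the same mice, against 49.0 in culture. All 5 mice thus lay below the culture for both genes, but mouse 5546 differed from it by little in SMAD3, and leaving out any of 7 of its CTCs put it above. In that mouse CTC 5546-s9 had 277 normalized counts of SMAD3, and without it the mean was 32.6. That CTC also had the highest PTPRC of all CTCs (205). Over the 37 CTCs, pooled over mice, Spearman's rho with the leukocyte list was 0.358 for SMAD3 and -0.332 for SMAD2. With the neutrophil list it was 0.323 and -0.278. The part of leukocyte RNA in the SMAD levels was not tested.

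The balance of the SMAD pair varied between mice, which was not tested. The ratio of mean SMAD3 to mean SMAD2, both as normalized counts, was 0.209 in mouse 5541, 0.351 in mouse 5542, 0.933 in mouse 5545, 5.69 in mouse 5546 and 0.929 in mouse 5549, and 1.11 in culture. The ratio of mouse 5542 rested on SMAD2 in CTC 5542-4 (76.5) and was 1.86 without it, and that of mouse 5549 was 1.95 without 5549-5. Per length of merged exons, the ratios were 0.761, 1.28, 3.39, 20.7 and 3.38 in the same order, and 4.04 in culture. SMAD3 exceeded SMAD2 in 14 of 17 CTCs of mouse 5546 and in 0, 1, 3 and 1 CTCs of mice 5541, 5542, 5545 and 5549. In mouse 5546 no CTC had more SMAD2 than SMAD3, neither among the libraries with c, where SMAD3 was higher in 9 of 9, nor among those with s, where it was higher in 5 of 8 and the other 3 had neither gene. Per length, SMAD3 was the higher of the pair in 24 CTCs and SMAD2 in 8, since the merged exons of SMAD2 are long (36426 bases against 10011).

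Of the inhibitors, SMAD7 was detected in few CTCs and SKIL in most. SMAD7 (ENSG00000101665, chromosome 18 from 48919853 to 48950965), which blocks the type I receptor, had reads in 5 CTCs, or 13.5% (4.54% to 28.8%), with values of 0.914 to 13.1, and in 3 of 6 cultured cells. Its mouse means were 3.94, 0, 0.840, 0.825 and 1.51, below the culture mean of 4.06 in all 5 mice (in 4 without CTC 5541-5), and the 0 of mouse 5542 allows a mean of up to 0.415. In the CTCs without a read the gene may still have been transcribed below the reach of these libraries.

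SKIL (ENSG00000136603, chromosome 3 from 170357342 to 170396835), the gene for SnoN, a repressor of SMAD-dependent transcription, had reads in 28 CTCs, or 75.7% (58.8% to 88.2%), and in 5 cultured cells. Only 10 CTCs reached 8 normalized counts. Mouse 5541 had a mean of 41.6, above the culture mean of 25.8, with 52.3 and 30.8 in its 2 CTCs. The other means were 2.97 in mouse 5542, 5.17 in mouse 5545, 7.44 in mouse 5546 and 16.3 in mouse 5549. The last rested on CTC 5549-6 at 61.6. That CTC, which also had 183 normalized counts of TGFBR2, had the highest erythroid (15571) and neutrophil (576) marker sums of all CTCs. The part of blood-cell RNA in its values was not tested. All 5 CTCs with SMAD7 also had SKIL.

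TGFBI (ENSG00000120708, chromosome 5 from 136028988 to 136063818) encodes a secreted matrix protein named for its induction by TGF-beta and was very high in a few CTCs. It was detected in 31 CTCs, or 83.8% (68.0% to 93.8%), and in 5 cultured cells, where it ran from 0 to 416 with a median of 124. Its mean was 281 in mouse 5541, 8.43 in mouse 5542, 230 in mouse 5545, 48.9 in mouse 5546 and 22.9 in mouse 5549, against 164 in culture. The 2 high mouse means came from single cells, since CTCs 5545-15 (1037), 5545-1 (876) and 5541-1 (518) held 63.7% of the TGFBI signal of all CTCs, and these 3 were the only CTCs above the highest cultured cell. Without 5545-1 and 5545-15 the mean of mouse 5545 was 48.0. The mean of CTCs without a PTPRC read (128) was above that of CTCs with one (44.4), but this order rests on CTCs 5545-15, 5545-1 and 5541-1, which had no PTPRC read.

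**Figure D2:**
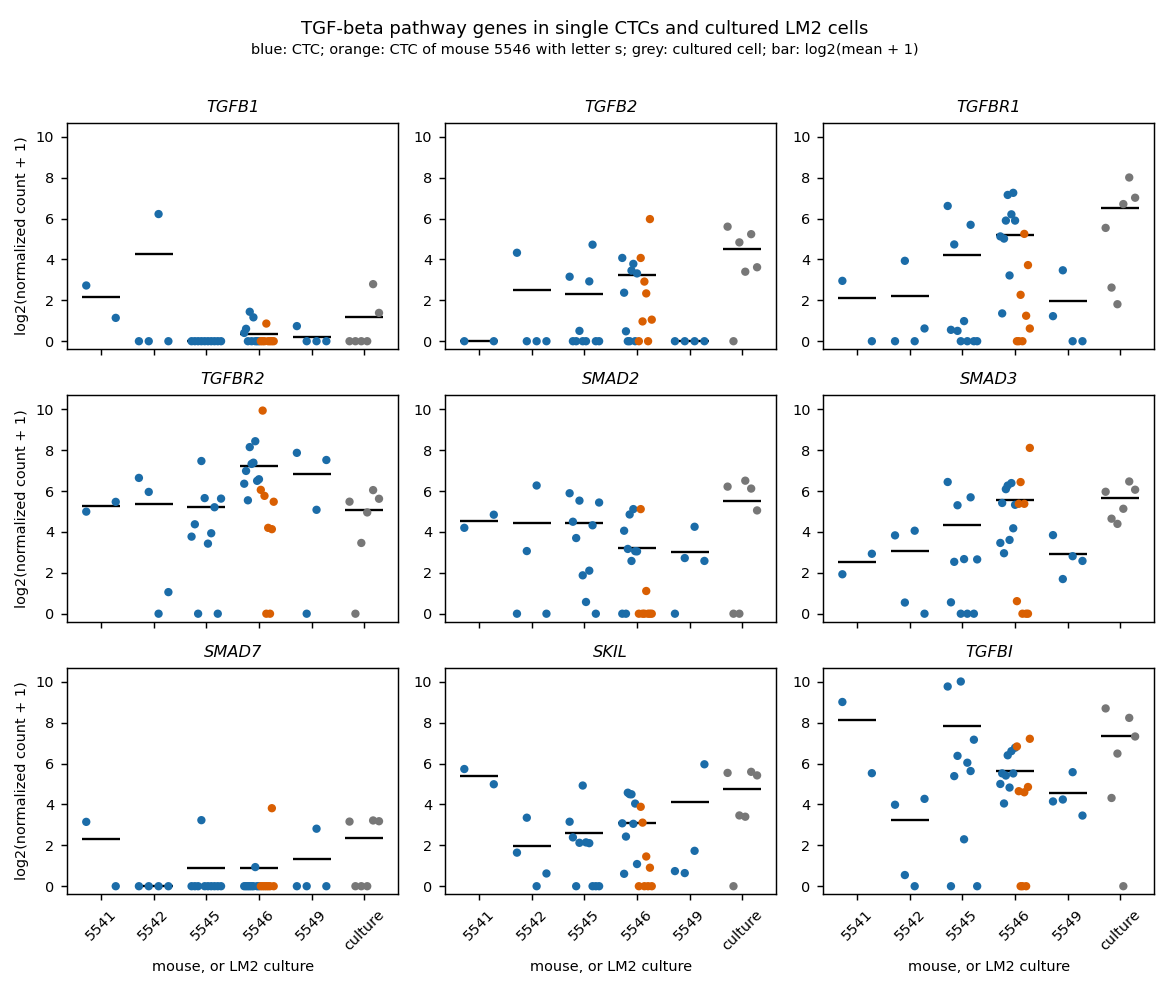
Normalized count of the 9 genes in each CTC by mouse and in each cultured cell, as log2(normalized count + 1), with orange points for the libraries of mouse 5546 with the letter s and black bars for log2(mean + 1) of each group. The bars of TGFBR2 lie above that of the culture in all 5 mice, in 3 of them by little and through 1 cell, those of TGFBR1 lie below it in all 5, and TGFB1 and SMAD7 are at 0 in most cells.

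Levels of different genes were compared per kilobase (kb) of merged exons, which for SMAD2 include a single transcript of 34626 bases that may understate its level. Over the 5 mice the order was TGFBI at 15.3 ± 16.5 normalized counts per kb (SD, n = 5), TGFBR2 at 11.1 ± 7.78, SKIL at 1.81 ± 1.95, SMAD3 at 1.70 ± 1.77, TGFBR1 at 1.60 ± 1.82, TGFB1 at 1.37 ± 2.43, TGFB2 at 0.569 ± 0.587, SMAD2 at 0.437 ± 0.207 and SMAD7 at 0.360 ± 0.381. The mean step from TGFBR2 to SKIL was larger than the SD of either gene. TGFBR2 was the higher of the 2 per kb in all 5 mice, but only by little in mouse 5541. The mean normalized counts of that mouse, before division by length, were 37.2 for TGFBR2 and 41.6 for SKIL. No other neighbours in this order differed by more than the larger of their SDs. In culture TGFBI also came first at 21.3 per kb, but TGFBR1 was second at 11.3, followed by SMAD3 (4.90) and TGFBR2 (4.81), and TGFB1 was last at 0.385.

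**Figure D3:**
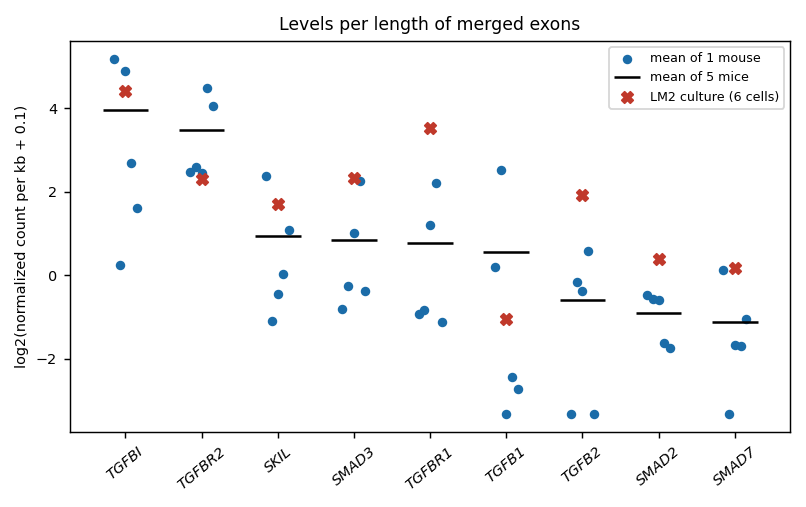
Mean normalized count per kb of merged exons, as log2(value + a small constant), for the 9 genes in the order of their mean over mice, with a blue point for each mouse, a black bar for the mean of the 5 mice and a red cross for the culture. TGFBI and TGFBR2 lead in the mice, and the culture lies below all 5 mice for TGFBR2 and above all 5 for TGFBR1.

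CTCs were compared with culture on log2(mean + 1) of the 5 mice and the culture in limma, with the spread of the single culture taken to equal that between mice. None of the 9 genes was called at an adjusted p of 0.05, where 1 of the 12290 genes tested was called higher in CTCs (0.00814%, PAEP) and none lower (0%). Without adjustment 1 member (TGFBR1) and 1199 genes (9.76%) were below 0.05. In edgeR on summed reads no gene was called (0% of 13813), with no member and 252 genes (1.82%) below 0.05 unadjusted. DESeq2 called 16 genes higher (0.163% of the 9789 with an adjusted p) and 2 lower (0.0204%), 0.184% in all, and no member, with no adjusted p given for SMAD7. In DESeq2 TGFBR2 alone of the 9, and 381 genes in all (2.41%), were below 0.05 unadjusted.

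The scale of the table bears on every direction. The summed normalized counts were 1.58 times as high in the median cultured cell as in the median CTC, and the median difference of all genes tested was -1.30 (log2, CTCs minus culture), against -0.61 on CPM, for which every cell is scaled to the same total, and 0.31 in edgeR. Mouse means below the culture in all 5 mice were accordingly common, at 50.1% of all genes tested and 5 of the 9 members (TGFB2, TGFBR1, SMAD2, SMAD3 and SMAD7), so this count is near the background. Mouse means above the culture in all 5 mice were found for 1.36% of genes and for TGFBR2 among the members. On CPM, the members below in all 5 mice were TGFB2, TGFBR1 and SMAD2, with a background of 28%, and the member above in all 5 was again TGFBR2, with 4.56%.

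TGFBR2 differed by 0.90 (log2, SE 1.02, limma adjusted p = 0.663), higher in 5 of 5 mice but in 4 of 5 without CTC 5541-5, 5542-1 or 5545-12, which is 2.21 above the median gene and at percentile 95.1 of all genes tested. TGFBR1 differed by -3.37 (SE 1.504, limma adjusted p = 0.505), lower in 5 of 5 mice with any 1 CTC left out, which is 2.07 below the median gene and at percentile 3.55. On CPM, the mean of mice was 95.1 ± 67.3 (SD, n = 5) for TGFBR2 against 23.5 in culture, and 14.8 ± 16.7 for TGFBR1 against 66.0. The ligand TGFB2 differed by -2.91 (SE 1.60, limma adjusted p = 0.506), lower in 5 of 5 mice, which is 1.61 below the median gene. With the mean of log2 values over cells in place of the log2 of the mean, TGFB2 was called lower (limma adjusted p = 0.0481), where 809 genes (8%) were called lower. None of the 3 differences passed the threshold in limma on log2(mean + 1).

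The other members lay near the median of all genes, except TGFB1. SMAD2 was at -1.56 (SE 1.24) and SMAD3 at -1.96 (SE 1.39), with limma adjusted p of 0.567 and 0.534. SMAD7 was at -1.26 (SE 1.28), SKIL at -1.30 (SE 1.48) and TGFBI at -1.48 (SE 1.54), with limma adjusted p of 0.635, 0.665 and 0.645, and all 3 turned positive in edgeR, at 0.043, 0.28 and 0.76, and in DESeq2. TGFB1 was at 0.22 (SE 1.55, limma adjusted p = 0.945), higher in 2 of 5 mice, and at -0.50 without mouse 5542. Its SE is larger than its difference in either case.

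**Figure D4:**
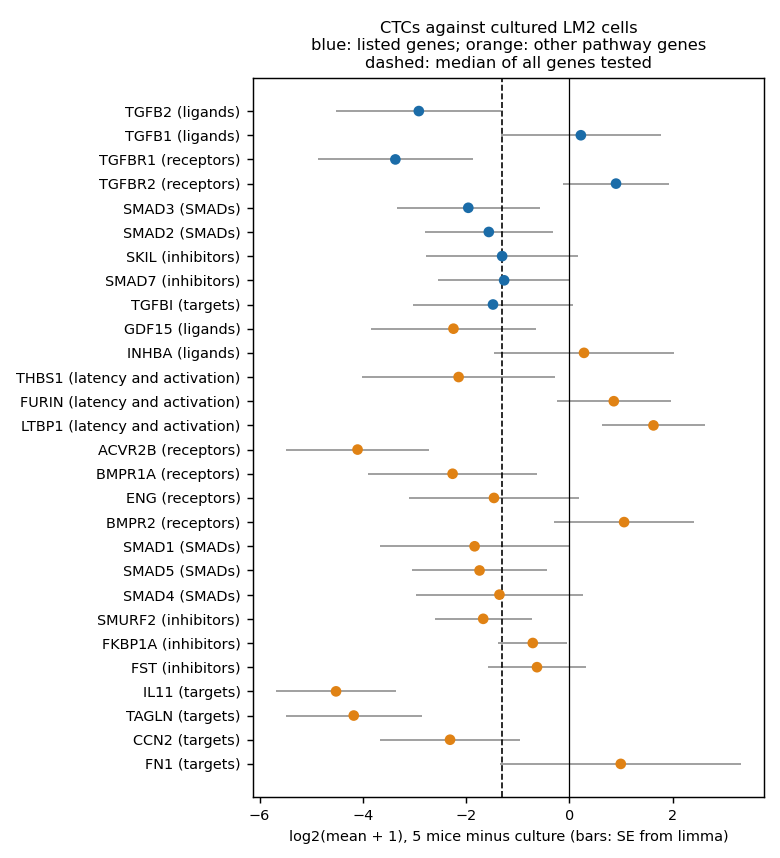
Difference in log2(mean + 1) between the 5 mice and the culture (x axis) for the 9 genes in blue and for other pathway genes in orange, with the standard error from limma as bars, a solid line at 0 and a dashed line at the median of all genes tested (-1.30). TGFBR1 and TGFBR2 lie on either side of the dashed line, and SMAD7, SKIL and TGFBI, which turn positive in edgeR and DESeq2, lie beside it.

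Other genes of the pathway were listed by role, 67 in all, of which 62 were in the table and 55 passed the filter on low values. None was called in limma (0 higher and 0 lower), edgeR or DESeq2, and 5, 4 and 7 were below 0.05 unadjusted in these tools. DESeq2 gave no adjusted p for some of them, among them IL11, so it could not call these. The median difference of the pathway genes was -1.15, beside -1.30 for all genes tested and -1.48 for the 9 members. In 20 all mice lay below the culture and in 3 all lay above it, namely LTBP1, FURIN and ITGB3. The share of all genes is 50.1% for below and 1.36% for above. On CPM the counts were 10 below, where 28% of all genes were, and 6 above, where 4.56% were.

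Genes of ligand latency and activation had the highest median of the roles, at 0.15 over 8 tested genes. LTBP1, which tethers latent TGF-beta to the matrix, had 49.8 ± 17.7 normalized counts (SD, n = 5) in the mice and 14.5 in culture, a difference of 1.63 (SE 1.00, limma adjusted p = 0.511), higher in 5 of 5 mice. It was detected in 34 of 37 CTCs. FURIN, the protease that cleaves the ligand precursor, had 25.2 ± 3.82 against 13.3, higher in 5 of 5 mice (limma adjusted p = 0.697), but not in mouse 5541 without CTC 5541-1 nor in mouse 5549 without 5549-2. THBS1, the gene for thrombospondin, an activator of the latent ligand, had 65.9 ± 55.5 against 148.2, lower in 5 of 5 mice but in 3 of 5 on CPM.

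Among the other ligands, INHBA, the activin A subunit, had reads in 7 CTCs and GDF15 in 4, and TGFB3 in 5. INHBA had a mean of 11.0 ± 13.9 (SD, n = 5) in mice against 4.17 in culture. Its highest values were 128 in CTC 5549-6 and 60.8 in CTC 5542-4. Over all CTCs its mean was 6.04, and 2.64 without 5549-6. GDF15 had a mean of 3.49 ± 5.03 in mice against 10.6, and TGFB3, which was not tested, had 0.782 ± 1.45 against 1.48. Among the receptors, BMPR2, the type II receptor of bone morphogenetic proteins, had 17.8 ± 11.4 against 6.73 (higher in 4 of 5 mice), BMPR1A had 5.28 ± 6.98 against 17.2, and ENG, a co-receptor, had 10.5 ± 8.11 against 20.7. None of these passed the test.

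SMAD4, the common partner of SMAD2 and SMAD3, was detected in 15 CTCs at 5.62 ± 5.04 normalized counts in the mice, against 10.9 in culture. SMAD5 and SMAD1, which serve bone morphogenetic protein receptors, had 13.9 ± 8.01 against 42.2 and 19.3 ± 22.2 against 31.2. SMAD1 had a mean of 51.0 in mouse 5541 and 33.5 in mouse 5542, but 2.11 in mouse 5546 and 0 in mouse 5549. The first mean came from CTC 5541-5 alone (102.04), and CTC 5542-1 (109) held 81.7% of the signal of mouse 5542. Among the inhibitors, FKBP1A, which holds the type I receptor inactive, had reads in all 37 CTCs, at 512.6 ± 180.0 against 795 in culture. SMURF2, a ubiquitin ligase for the receptors, had 54.2 ± 20.8 against 162, and FST, which binds activin, had 68.3 ± 27.7 against 95.9. All mice lay below the culture for these 3 inhibitors on this scale, for SMURF2 also with any 1 CTC left out, while FKBP1A and FST were higher in edgeR, at 0.68 and 0.89, in DESeq2 and on CPM.

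Of the 21 target genes tested none was called, and 4 were below 0.05 unadjusted, all of them lower, where 9.76% of all genes were below 0.05 and the median gene was itself lower (-1.30). In edgeR 2 and in DESeq2 3 target genes were below 0.05 unadjusted. ITGB3, an integrin subunit on the target list, is named here after its value was seen and differed by 2.705 (SE 1.69, limma adjusted p = 0.512), higher in 5 of 5 mice but not in mouse 5541 without CTC 5541-1 nor in mouse 5549 without 5549-3. Among those with the highest means in CTCs were FN1 (fibronectin) and CCN2, a secreted matricellular protein. FN1 had 546.5 ± 413.8 (SD, n = 5) against 144, higher in 4 of 5 mice, with 12.4 in mouse 5549. CCN2 had 485 ± 432 against 1493. The difference was 1.00 for FN1 (SE 2.33) and -2.31 for CCN2 (SE 1.35).

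The 3 pathway genes with the lowest p were named after their values were seen, and all were lower in CTCs. IL11, a cytokine that TGF-beta induces, had 12.3 to 61.7 normalized counts in the 6 cultured cells and at most 4.18 in any CTC. The share of all genes with such a gap was not counted. Its mouse means were 0, 0.306, 0.134, 0.498 and 0, against 25.9 in culture, with a difference of -4.52 (SE 1.16, limma adjusted p = 0.505), lower in 5 of 5 mice. It was detected in 8 of 37 CTCs. TAGLN, an actin-binding protein, had a mean of 0.892 ± 1.31 (SD, n = 5) against 27.6, and reads in 4 CTCs. ACVR2B, a receptor of activin, had 1.34 ± 1.83 against 31.4, and reads in 5 CTCs. IL11 passed the threshold with a pseudocount of 8, without a filter and with the mean of log2 values over cells, and TAGLN and ACVR2B passed it with the last of these. In these 3 settings 0.163%, 6.03% and 8% of all genes were called lower.

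Across the 37 CTCs the members were detected in different numbers. None of the CTCs had all 9, 5 had 8, 5 had 7, 11 had 6 and 7 had 5, and 2 (5545-6 and 5546-s7) had only 1. The cultured cells had 3, 6, 6, 8, 9 and 9. Spearman's rho with the number of genes detected was 0.482 for TGFBR1, 0.462 for SMAD2, 0.433 for SKIL, 0.409 for TGFBR2 and 0.397 for SMAD3, so pairs of members also share the gene number of the cell, as well as its mouse.

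SMAD3 followed both receptors over the 37 CTCs, with Spearman's rho of 0.524 with TGFBR2 and 0.466 with TGFBR1. TGFBR2 also had 0.503 with SKIL, while SMAD2 and SMAD3 had 0.375 and the receptors had 0.161 with each other. The values with SMAD3 fell to 0.266 and 0.203 without mouse 5546. The ligands had between -0.05 and 0.36 with the receptors and SMAD3. These correlations are descriptions over cells that share mouse, depth and gene number, and no p is given.

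For the 6 members detected in at least 50% of the CTCs, the genes with the most similar pattern over the 37 CTCs were looked up among 7014 genes by Spearman's rho. They were NUP133 (0.686) and KPNA3 (0.671) for TGFBR1, ERRFI1 (0.651) and ARCN1 (0.641) for TGFBR2, SNRNP40 (0.695) and CLCC1 (0.689) for SMAD2, FNBP4 (0.750) and ZMYM2 (0.714) for SMAD3, PRKAR1A (0.706) and PCMTD2 (0.691) for SKIL, and PIGS (0.518) and CUEDC2 (0.516) for TGFBI. No listed member was among them. The best matches of TGFBI were lower than those of the other 5 members. The best matches of SMAD2 and TGFBR1 themselves had rho of 0.554 to 0.630 with the number of genes detected. ERRFI1 had 0.561, and the remaining matches ran from 0.195 (CUEDC2) to 0.492 (PRKAR1A).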

How the data were processed

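Single-cell RNA-seq by SMARTseq2, without molecular identifiers, was available for 37 CTCs and 6 cultured LM2 cells. Another 4 labelled CTC libraries have no column in the table and were not analysed here. Per the paper's methods and the submitters' processing notes, the authors used STAR 2.7.10a on GRCh38 and GENCODE release 38, counted reads per gene without strand, and divided them by size factors from DESeq2 1.42.1. The deposited values are thus a signal, counts per gene divided by a size factor, and 100% of the nonzero values gave whole reads (tolerance 0.001). Symbols and exons were taken from GENCODE release 44 (25684 of 25739 identifiers matched), and exon lengths are of merged exons. RefSeq promoter windows matched all 9 members.

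The mean of each mouse and of the culture was taken, and log2(mean + 1) was tested in limma 3.58.1 (trend, robust, two-sided, Benjamini-Hochberg over all genes with a mean of the 6 columns of at least 1). Whole reads summed per mouse were tested in edgeR 4.0.16 and DESeq2 1.42.0 as alternatives. The steps ran in R 4.3.3 and Python 3.11.15 and were tested on simulated data. Intervals and limits of a count of 0 (3 reads over the summed reads of a group) cover counting error only. Named pathway genes are the 3 of each role with the highest mean over CTCs, because none was called in limma, edgeR or DESeq2 (1 target gene is not reported here), and likeness was sought among genes detected in at least 19 CTCs. Members and lists were chosen with earlier results of these data known. Nothing says that the cultured cells came from separate cultures, and p-values rest on the spread between the 5 mice. Alternatives were other scalings, tools, pseudocounts, filters and averages, thinning to 469614 reads, and leaving out mice, cultured cells and libraries. CPM values, parts of the culture, the receptor ratio and the removal of single CTCs were added after the data were seen.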

Additional observations from a re-analysis of the deposited data

Results flagged for a closer look

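Of 42 groups of 4 to 10 values examined among the 9 genes, 15 had a single value far from the others (Dixon's test at 95%), where chance gives about 1 in 20, and groups in which most cells have no read are prone to it. The values were normalized counts per cell. In mouse 5542 they were TGFB1 in 5542-4 (73.8, the others at 0), TGFB2 in 5542-1 (19.1, the others at 0), TGFBR1 in 5542-2 (14.3, next 0.540) and SMAD2 in 5542-4 (76.5, next 7.38). In mouse 5545 they were TGFB2 in 5545-4 (25.5, next 7.92), TGFBR1 in 5545-1 (97.4, next 50.9), TGFBR2 in 5545-12 (176.9, next 49.5), SMAD7 in 5545-12 (8.40, the others at 0) and SKIL in 5545-15 (29.5, next 7.92). In mouse 5549 they were TGFB1 in 5549-2 (0.670, which is 1 read, the others at 0), TGFBR1 in 5549-3 (10.1, next 1.34), SMAD7 in 5549-5 (6.04, the others at 0) and SKIL in 5549-6 (61.6, next 2.32). In culture TGFB1 stood apart in LM-P3 (5.94, next 1.61), and among the 5 mouse means TGFB1 stood apart in mouse 5542 (18.4, next 3.42). All 15 values were the highest of their group.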

How the results depend on the processing

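The numbers of genes called depended on the setting. Genes called higher numbered 0 in edgeR with TMM and 0 with RLE size factors, 16 in DESeq2, 3 without a filter, 4 with the mean of log2 values, 2 on CPM, 2 with only the 3 cultured cells within the gene range of the CTCs, and 1 to 3 with a mouse or cultured cell left out (3 without mouse 5541 and 2 without mouse 5549). Genes called lower numbered 2 in DESeq2, 20 with a pseudocount of 8, 1552 without a filter and 809 with the mean of log2 values. The last called 1 member lower (TGFB2) and 6 pathway genes, and 4 pathway genes were called without a filter and 1 (IL11) with a pseudocount of 8. The causes were not tested. TGFBR2 was higher and TGFBR1 lower in CTCs in all 26 alternatives, from 0.25 to 2.41 and from -4.03 to -1.78. Every reversal had an adjusted p above the threshold, except SMAD7 in DESeq2, where none was given. TGFB1 was at -0.57 with a pseudocount of 0.1, at -0.42 with only the 3 cultured cells that had more genes than every CTC (gene-rich), and between -0.50 (without mouse 5542) and 1.00 with 1 mouse or cultured cell left out. In edgeR with TMM, edgeR with RLE and DESeq2, in this order, SMAD7 was at 0.043, 0.091 and 0.070, SKIL at 0.28, 0.33 and 0.32, TGFBI at 0.76, 0.78 and 0.78, ENG at 0.33, 0.32 and 0.31, SMAD1 at 0.66, 0.68 and 0.68, SMAD4 at 0.37, 0.39 and 0.38, FKBP1A at 0.68, 0.70 and 0.69, and FST at 0.89, 0.90 and 0.90, while THBS1 was at 0.027 and 0.0097 in edgeR. With only the other 3 cultured cells, within the gene range of the CTCs, SMAD7 was at 1.08, SKIL at 0.53, TGFBI at 0.68, SMAD4 at 0.81 and FST at 0.51, and on CPM FKBP1A was at 0.019 and FST at 0.25. INHBA was at -0.21 with the mean of log2 values, at -0.57 with the gene-rich cultured cells and between -0.33 (without mouse 5549; -0.06 without mouse 5542) and 0.97 with 1 mouse or cultured cell left out, and FURIN was at -0.042 with the gene-rich cultured cells. At 8 normalized counts or more, the shares of CTCs were 2.703% for TGFB1, 21.6% for TGFB2, 40.5% for TGFBR1, 40.5% for SMAD2, 48.6% for SMAD3 and 27.0% for SKIL. TGFB2 was detected in 27.1% as the mean of the mice and in 25.0% to 51.5% with a mouse left out, the lowest without mouse 5546. The Spearman correlation of SMAD2 with SMAD3 was 0.55 with each mouse's mean rank removed. Without 1 mouse, the correlation ran from -0.19 to 0.25 for the receptors, from 0.20 to 0.55 for TGFBR1 with SMAD3 and from 0.27 to 0.57 for TGFBR2 with SMAD3, each lowest without mouse 5546. No paired analysis was possible because the numbers in library names only name cells, and the mice and the culture share no pairing. The main limits are 1 culture without a replicate, 2 to 17 CTCs per mouse, and genes with few reads per cell, for which absence cannot be told from a level below detection.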
